A study of Mus musculus with 8 samples.

Results

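The genes described here are 60 that drive or carry out the cell division cycle, chosen by name from the pathway: 15 act in G1 (D cyclins and their kinases, CDK inhibitors, the Rb and E2F proteins, cyclin E and *Cdk2*), 21 act in S phase (origin licensing and firing, the sliding clamp, nucleotide supply, DNA methylation, the atypical E2F repressors) and 24 act in mitosis. All 60 were found among the 24063 gene symbols measured, and all 60 passed the filter on low counts that left 16557 genes. They were measured by RNA-Seq in 8 cultures of mouse kidney tubuloids, which are tubule structures grown in Matrigel from fragments of postnatal day 7 to 10 kidney. In 4 cultures, numbered 6, 12, 17 and 22, the medium held GDNF, the ligand of the Ret receptor, during a 24 h pulse. The 4 control cultures, numbered 3, 7, 14 and 21, received the same growth factor medium without it. All cultures were grown for 7 days before RNA was taken. Both groups had the genotype Pkd2fl/fl Pax8rtTA TetOCre mTmG: floxed *Pkd2* alleles, an inducible Cre whose activator is driven by *Pax8*, a gene of kidney tubule epithelium, and a fluorescent Cre reporter. The labels name no inducer for these cultures, and nothing says whether they came from separate mice, so p-values measure the spread between cultures only.

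A cell commits to division in G1, when D cyclins with *Cdk4* and *Cdk6* and then cyclin E with *Cdk2* phosphorylate Rb and release the E2F transcription factors, while CDK inhibitors hold these kinases back. E2F switches on the S phase genes, whose products load and fire replication origins, supply nucleotides and copy DNA together with its methylation. Mitotic genes come on later, through *Mybl2*, *Foxm1* and a promoter element known as the CHR, and build the spindle, the kinetochores and the division furrow. Kidney tubule cells of the first postnatal days still proliferate, and GDNF acting through Ret is known for driving growth and branching of the ureteric bud.

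The promoters of the S phase and mitotic genes differed in how often they carried E2F-type and CHR letters. A link between these letters and the levels in the cultures was not tested. RefSeq promoter windows of GRCm38, from 250 bases before to 50 after the start, were held for 49 of the 60 genes, the one listed at the top being used where a gene had several. The E2F-type letters TTTCCCGC, TTTCGCGC, TTTGCCGC or TTTGGCGC, on either strand, were in 8 of 18 S phase, 3 of 11 G1 and 1 of 20 mitotic windows, against 2.32% of 27025 genes. The CHR letters TTTGAA were in 14 of 20 mitotic, 3 of 18 S phase and 1 of 11 G1 windows, against 18.1% of all. CCAAT, the letters bound by NF-Y, was in 16 of 20 mitotic, 14 of 18 S phase and 3 of 11 G1 windows, against 37.9%, and CHR and CCAAT together were in 13 of 20 mitotic windows, against 7.12%. These letter matches describe the windows and were not measured as binding sites. The 160 bases before the start are given, 5′ to 3′ on the strand of the gene, for a helicase subunit gene with E2F letters (*Mcm6*, chr1:128359706-128359865), for the sliding clamp gene (*Pcna*, chr2:132253181-132253340), for the mitotic kinase gene that has all the letters (*Cdk1*, chr10:69352913-69353072) and for an activator of mitotic exit (*Cdc20*, chr4:118437344-118437503), all of which lie on the minus strand. Capitals mark the E2F, CHR and CCAAT letters on either strand, and at the upstream site of *Mcm6* a pair of E2F matches overlap.
Mcm6: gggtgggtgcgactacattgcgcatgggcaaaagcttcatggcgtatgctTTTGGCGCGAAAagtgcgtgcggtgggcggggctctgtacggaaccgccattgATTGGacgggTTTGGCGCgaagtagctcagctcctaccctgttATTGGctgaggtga
Pcna: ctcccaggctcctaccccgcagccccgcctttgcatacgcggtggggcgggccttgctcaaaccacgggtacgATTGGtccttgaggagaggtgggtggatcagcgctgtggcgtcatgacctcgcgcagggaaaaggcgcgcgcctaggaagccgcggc
Cdk1: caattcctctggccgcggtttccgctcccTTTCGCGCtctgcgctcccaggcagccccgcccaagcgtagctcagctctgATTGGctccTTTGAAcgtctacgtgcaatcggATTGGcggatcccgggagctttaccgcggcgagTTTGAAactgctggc
Cdc20: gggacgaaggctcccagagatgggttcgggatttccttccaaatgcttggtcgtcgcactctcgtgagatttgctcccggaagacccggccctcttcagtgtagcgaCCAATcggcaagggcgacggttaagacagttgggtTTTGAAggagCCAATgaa
The capitals in *Mcm6* are E2F and CCAAT letters, and *Pcna* has CCAAT letters only in this stretch. *Cdk1* has E2F, CHR and CCAAT letters, whereas *Cdc20* has the CHR and CCAAT pair without E2F letters.

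Levels are given as CPM, the deposited transcript counts summed per gene and scaled to a common library size with TMM normalization. Totals were 72991721 to 97490625 counts per culture. TMM factors were 0.790 in control culture 3, 0.963 to 0.982 in the other controls and 1.07 to 1.11 after GDNF. By their *Xist* and Y-linked RNA, each group held 2 cultures of each kind. Epithelial markers were present, with a summed level of 682 to 4369 CPM in the controls and 1252 to 2430 CPM after GDNF for 10 genes of tubule epithelium, all at 1 CPM or more in at least 1 culture. Of 6 proximal tubule markers, *Lrp2*, *Slc34a1*, *Slc22a6* and *Aqp1* stayed under 1 CPM in every culture, *Cubn* lay between 0.359 and 1.52 CPM, and *Slc5a2* lay between 7.26 and 13.6 CPM. Stromal markers (10 genes) summed to 782 to 4768 CPM in the controls and 652 to 3213 CPM after GDNF. In such bulk RNA, fewer dividing cells and less RNA per cell cannot be told apart.

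In the GDNF cultures, most cell cycle genes had a lower estimated level than in the controls, but no member passed the adjusted p. In the quasi-likelihood F test of edgeR, adjusted over all genes by the Benjamini-Hochberg method, 0 of 60 members were called at an adjusted p of 0.05, as were 0% of all genes tested (0 of 16557). The limma-voom test called 0 genes. By DESeq2, 3 members were called, all lower (*Pcna*, *Cdk1* and *Cenpa*), out of 59 with an adjusted p, where it called 10.6% of all genes with an adjusted p, 194 higher and 1014 lower. At an unadjusted edgeR p of 0.05, 12 members were lower after GDNF, where 12.9% of all genes were, and 1 member, *Mki67*, was higher, where 9.25% of all genes were. Members at this p in either direction made up 21.7%, close to the 22.1% of all genes. Of the estimates, 45 of 60 were below zero, where 47.5% of all genes were. The median log2 fold change was -0.24 for the members and 0.03 for all genes. With library size only, 31 of 60 were below zero, and 45 lay below the median of all genes, which that scaling moved to 0.25.

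The lower estimates were spread over G1, S phase and mitotic genes, and differences between these classes were not tested. At the unadjusted p, 12.9% of all genes were lower and 9.25% higher, and 47.5% of all genes had an estimate below zero. Among the G1 genes, 4 of 15 were lower at the unadjusted p (*Cdk4*, *Ccne1*, *Ccnd1* and *Ccnd3*), 9 of 15 estimates were below zero and the median log2 fold change was -0.19. Among the S phase genes, 3 of 21 were lower (*Pcna*, *Tk1* and *Tyms*), 17 of 21 estimates were below zero and the median was -0.20. Among the mitotic genes, 5 of 24 were lower (*Cdk1*, *Cenpa*, *Aurka*, *Bub1* and *Ccnb2*), *Mki67* was higher, 19 of 24 estimates were below zero and the median was -0.34. *Ccnb2* was the member nearest to the threshold on the inside, with an unadjusted edgeR p of 0.0492, and outside it the nearest were *Dnmt1*, *Nusap1*, *Birc5* and *Gins2*, with p from 0.0524 to 0.0567 and log2 fold changes of 0.34, -0.39, -0.45 and -0.50. The SD of the class median between cultures, in the group where it was larger, was 0.14 for G1, 0.36 for S phase and 0.39 for mitotic genes, so that the last 2 medians were smaller than this spread. Without control culture 21, the class medians were -0.30 for G1, -0.01 for S phase and -0.05 for mitotic genes. The count of lower members was 4 without control culture 3, without GDNF culture 12 and without GDNF culture 22, where 8.18%, 8.35% and 7.88% of all genes were lower. It was 6 without GDNF culture 17, against 10.2% of all genes, and 20 without control culture 7, against 14.3%. The 4 that remained without control culture 3 or GDNF culture 12 or 22 were *Cdk1*, *Pcna*, *Cenpa* and *Tk1* each time.

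**Figure D1:**
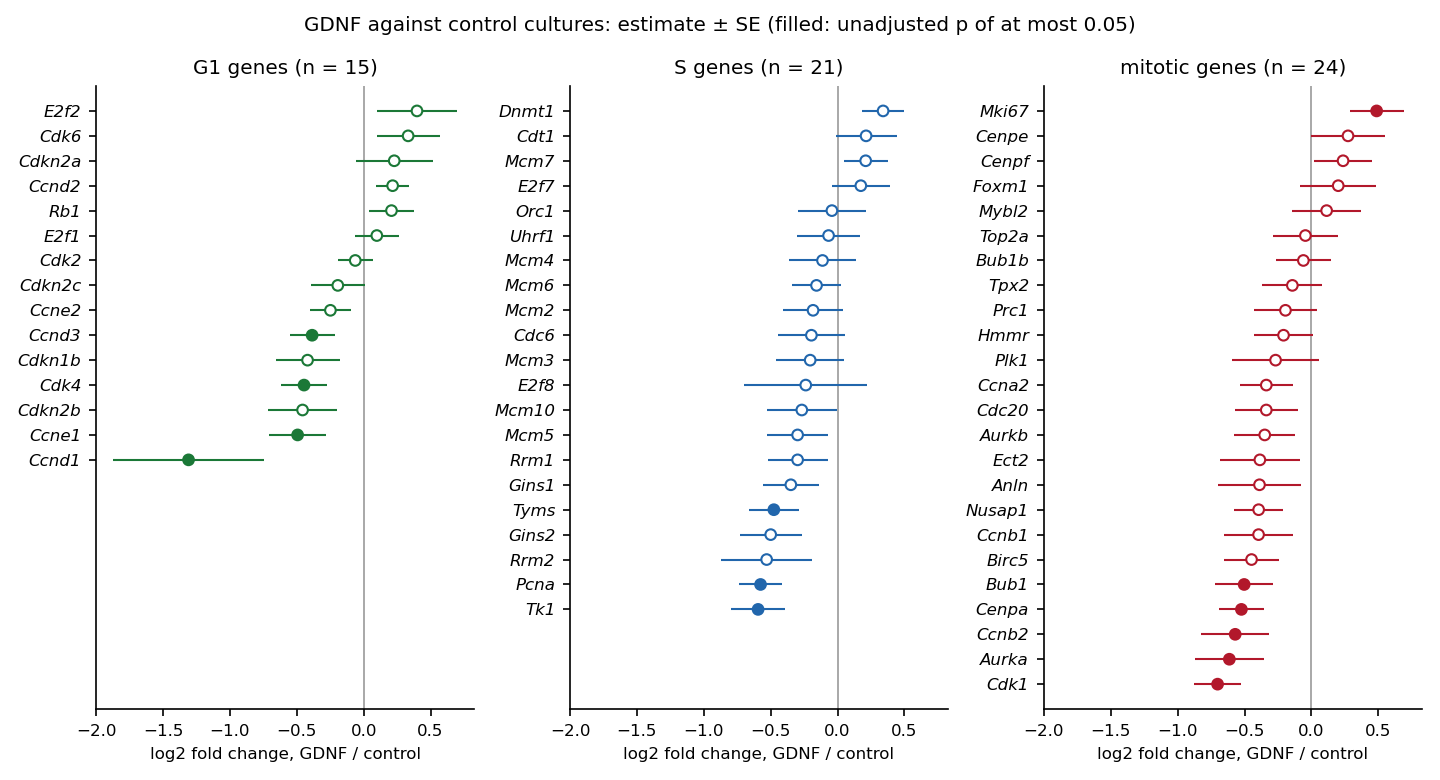
Log2 fold change of GDNF over control cultures with its standard error (edgeR, n = 4 cultures each) for the 15 G1, 21 S phase and 24 mitotic genes, ordered by estimate within each class. Filled points have an unadjusted p of at most 0.05. Most points lie left of zero in all 3 panels, *Ccnd1* is farthest left with the longest bar, and *Mki67* is the one filled point on the right.

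Groups did not overlap for 4 members (*Pcna* and *Cdk1*, lower after GDNF, and *Ccnd2* and *E2f2*, higher), where the groups did not overlap in 13.2% of all genes. For each of these 4, the exact permutation test of mean log2 CPM over the 70 assignments of cultures gave a two-sided p = 0.0286, the smallest it can give. Groups of 4 that do not overlap always give this value, so the test adds nothing to the separation itself. For the other members at an unadjusted edgeR p of 0.05, the permutation p ran from 0.0571 (*Cdk4* among them) to 0.4 (*Ccnd1*). *Cdk1*, the kinase that drives entry into mitosis (chr10:69335146-69352912 on GRCm38), was at 130.3, 80.3, 97.0 and 113 CPM in control cultures 3, 7, 14 and 21 and 74.7, 59.6, 67.2 and 56.9 CPM in GDNF cultures 6, 12, 17 and 22. Every GDNF culture was below every control on this scale, but with library size only, control culture 7 fell just below GDNF culture 6. The means were 105 ± 21.4 CPM in the controls and 64.6 ± 8.03 CPM after GDNF (SD, n = 4 each). The difference (log2 fold change -0.70, SE 0.17, adjusted p = 0.167) kept an unadjusted p under 0.05 with each culture left out in turn, with estimates between -0.81 and -0.58. *Pcna*, the ring that holds polymerases on DNA (chr2:132249286-132253180), was at 108, 75.7, 74.5 and 75.5 CPM in the controls and 59.4, 48.7, 58.9 and 57.1 CPM after GDNF, listed in the same order of cultures here and below. Control culture 3 stood above the other controls, and the GDNF cultures lay below all 4. Means were 83.5 ± 16.5 CPM in the controls and 56.0 ± 5.01 CPM after GDNF (SD, n = 4 each) (log2 fold change -0.58, SE 0.16, adjusted p = 0.167). The estimates with each culture left out lay between -0.66 and -0.43, all at an unadjusted p under 0.05.

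**Figure D2:**
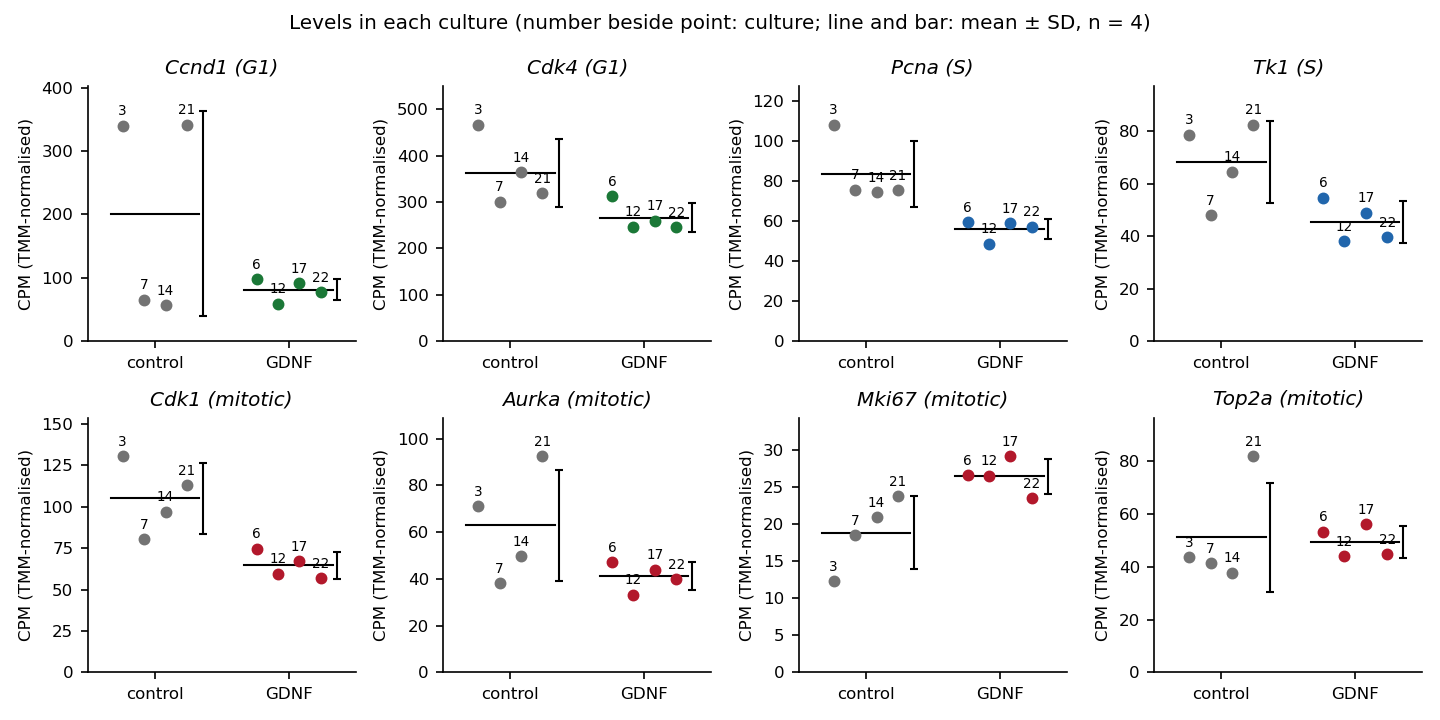
Level in CPM (TMM-normalised, axes from 0) of 8 members in each culture, grey for control and coloured for GDNF cultures, with culture numbers beside the points and the group mean ± SD (n = 4). *Cdk1* and *Pcna* separate the groups, *Ccnd1* is high in control cultures 3 and 21 only, *Mki67* is higher after GDNF with a small overlap, and *Top2a* is high in control culture 21 alone.

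In G1, the widest difference was that of *Ccnd1*, which encodes cyclin D1 and links growth factor signals to the cycle (chr7:144929931-144939831). Its levels were 341, 65.0, 56.3 and 342 CPM in the controls and 97.3, 59.0, 91.0 and 77.0 CPM after GDNF. Control cultures 3 and 21 were far above the other pair, with a 6.07-fold range among the controls, and all GDNF cultures lay nearer to the lower pair (log2 fold change -1.31, SE 0.56, adjusted p = 0.214). Without cultures 3 and 21, the log2 fold change was 0.35, the opposite sign. The same 2 controls had the highest summed level of tubule epithelium markers, 4369 and 4292 CPM against 1782 CPM in control culture 7 and 682 CPM in culture 14. *Krt8*, an epithelial keratin among them, was at 1041 and 1315 CPM in cultures 3 and 21 against 112 to 285 CPM in the other 6. The part of epithelial content in the *Ccnd1* result was not tested.

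Among the other D cyclins, *Ccnd3* was at 288, 182, 252 and 278 CPM in the controls and 175, 201, 212 and 176 CPM after GDNF. Control culture 7 lay within the GDNF range and the other 3 controls above it (log2 fold change -0.39, SE 0.17, adjusted p = 0.219). *Ccnd2* was at 208, 191, 194 and 182 CPM in the controls and 209, 229, 217 and 245 CPM after GDNF, with the lowest GDNF culture just above the highest control (log2 fold change 0.22, SE 0.12, adjusted p = 0.314). *Cdk4*, the partner kinase of the D cyclins and the member with the most RNA per length (authors' TPM 401 ± 32.0 in the controls, SD, n = 4), was at 466, 300.1, 364 and 319 CPM in the controls and 313, 246, 259.7 and 245 CPM after GDNF. Control culture 3 was the highest, and GDNF culture 6 overlapped with the controls (log2 fold change -0.45, SE 0.17, adjusted p = 0.188). *Cdk6*, its close relative, had a log2 fold change of 0.33 (SE 0.24) in the other direction.

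The CDK inhibitors had no member at the unadjusted p of 0.05. *Cdkn2b*, which encodes p15 and is the most abundant of these 4, was at 194, 109, 86.7 and 104 CPM in the controls and 109, 90.0, 66.8 and 93.7 CPM after GDNF. Only control culture 3 stood apart (log2 fold change -0.46, SE 0.26, adjusted p = 0.311). *Cdkn1b*, which encodes p27, was at 9.18, 9.93, 11.8 and 6.55 CPM in the controls and 5.15, 7.26, 8.72 and 6.87 CPM after GDNF and overlapped between groups (log2 fold change -0.42, SE 0.24, adjusted p = 0.319). *Cdkn2a* was at 6.92, 4.26, 3.17 and 6.07 CPM in the controls and 7.28, 5.94, 4.32 and 6.38 CPM after GDNF (log2 fold change 0.23, SE 0.29, adjusted p = 0.660). Its value sums 2 transcripts that were deposited with separate counts, and the p16 and Arf products were not read apart here. *Cdkn2c*, the inhibitor p18, had a log2 fold change of -0.19, with an SE of 0.20.

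In the Rb and E2F step, cyclin E1 and cyclin E2 are the activators of *Cdk2*. *Ccne1* was at 17.3, 12.7, 17.5 and 23.1 CPM in the controls and 11.8, 11.2, 15.6 and 11.4 CPM after GDNF. GDNF culture 17 lay above control culture 7, and the other 3 GDNF cultures lay below all controls (log2 fold change -0.49, SE 0.21, adjusted p = 0.212). *Ccne2*, with more counts, was at 184, 167, 169 and 137 CPM in the controls and 128, 120.2, 169 and 136 CPM after GDNF. Here too GDNF culture 17 alone reached into the range of the controls, and the other 3 GDNF cultures lay below it (log2 fold change -0.25, SE 0.15, adjusted p = 0.357). *E2f2*, an activating E2F at the low end of the range with 88 to 201 counts per culture, was at 1.58, 1.86, 0.939 and 1.79 CPM in the controls and 2.17, 1.92, 2.06 and 1.97 CPM after GDNF. The lowest GDNF culture exceeded the highest control by a small margin, and 1 control, culture 14, was far below the rest (log2 fold change 0.40, SE 0.30, adjusted p = 0.446). *Rb1*, the brake itself, *E2f1* and *Cdk2* had log2 fold changes of 0.21, 0.10 and -0.06, with standard errors of 0.17, 0.16 and 0.13.

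Among the S phase genes, 4 serve the supply of nucleotides, and all had estimates below zero, except that *Rrm2* was at 0.11 without control cultures 3 and 21. *Tk1*, thymidine kinase, was at 78.7, 47.9, 64.6 and 82.4 CPM in the controls and 54.7, 38.0, 48.9 and 39.7 CPM after GDNF. Control culture 7 was below GDNF cultures 6 and 17, while the other controls lay above all GDNF cultures (log2 fold change -0.59, SE 0.20, adjusted p = 0.167). *Tyms*, thymidylate synthase, was at 159, 104, 135 and 110.1 CPM in the controls and 117, 79.7, 88.7 and 79.3 CPM after GDNF, where GDNF culture 6 overlapped with the controls (log2 fold change -0.48, SE 0.19, adjusted p = 0.192). *Rrm1* and *Rrm2*, the subunits of ribonucleotide reductase, had estimates of -0.30 (SE 0.22) and -0.53 (SE 0.34). In all, 2 of these 4 genes were lower at the unadjusted p, where 12.9% of all genes were.

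Of the 12 genes for origin licensing and firing, 0 were at the unadjusted p in edgeR, where 22.1% of all genes were, and their median log2 fold change was -0.19. *Mcm7*, a subunit of the replicative helicase and the most abundant of the 12, was at 65.4, 59.2, 51.0 and 81.9 CPM in the controls and 78.5, 68.2, 80.9 and 70.3 CPM after GDNF. Its mean was higher after GDNF, with overlap between the groups (log2 fold change 0.21, SE 0.16, adjusted p = 0.458). The other helicase subunits *Mcm2*, *Mcm3*, *Mcm4*, *Mcm5* and *Mcm6*, whose products form 1 ring with *Mcm7*, had estimates of -0.18, -0.20, -0.11, -0.30 and -0.16. All of these, *Mcm7* included, were highest in control culture 21. *Cdc6*, *Cdt1* and *Orc1*, which load that ring, had estimates of -0.20, 0.21 and -0.04, and the firing factors *Gins1*, *Gins2* and *Mcm10* had -0.35, -0.50 and -0.27.

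The genes for copying DNA methylation and the atypical E2F repressors showed no common direction. *Uhrf1*, which brings the methyltransferase to new DNA, was at 191, 119, 127 and 248 CPM in the controls and 175, 154, 184 and 141 CPM after GDNF and overlapped fully (log2 fold change -0.07, SE 0.23, adjusted p = 0.889). *Dnmt1*, the methyltransferase, had a log2 fold change of 0.34 (SE 0.15). *E2f8*, a repressor that closes the E2F wave, was at 12.7, 5.82, 3.21 and 19.1 CPM in the controls and 7.31, 9.65, 9.70 and 8.01 CPM after GDNF. Its controls ran from the lowest to the highest of all 8 cultures, a range of 5.96-fold, so that the estimate (log2 fold change -0.24, SE 0.46, adjusted p = 0.786) carried a larger SE than that of every other member but *Ccnd1*. *E2f7*, the related repressor, had an estimate of 0.17 (SE 0.22).

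In mitosis, the B-type cyclins and *Ccna2* had lower estimates together with their kinase *Cdk1*, under each of the 5 scalings tried. Without control cultures 3 and 21, the estimates were -0.01 for *Ccnb1*, -0.10 for *Ccna2*, -0.16 for *Ccnb2* and -0.52 for *Cdk1*. *Ccnb2* was at 49.7, 27.2, 32.0 and 56.0 CPM in the controls and 36.2, 25.3, 28.0 and 21.5 CPM after GDNF, with control cultures 7 and 14 inside the GDNF range (log2 fold change -0.57, SE 0.25, adjusted p = 0.224). *Ccnb1*, the main cyclin of mitotic entry, was at 61.1, 35.6, 45.3 and 79.3 CPM in the controls and 48.8, 32.0, 50.9 and 36.5 CPM after GDNF. Control cultures 3 and 21 were above all GDNF cultures and the other pair was not (log2 fold change -0.40, SE 0.26, adjusted p = 0.378). *Ccna2*, cyclin A2, had an estimate of -0.34 (SE 0.20). The transcription factors of this phase had estimates above zero: *Foxm1* was at 9.99, 10.5, 15.8 and 19.1 CPM in the controls and 10.3, 16.6, 22.4 and 14.3 CPM after GDNF, with a wide range in both groups (log2 fold change 0.20, SE 0.28, adjusted p = 0.70), and *Mybl2* had an estimate of 0.11 (SE 0.26). Without GDNF culture 17 both were at -0.01.

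The genes of mitotic chromosomes and kinetochores went both ways. *Mki67*, the proliferation marker Ki-67 that coats mitotic chromosomes (chr7:135689784-135716450), was at 12.3, 18.5, 20.9 and 23.8 CPM in control cultures 3, 7, 14 and 21 and 26.6, 26.5, 29.1 and 23.5 CPM in GDNF cultures 6, 12, 17 and 22. The GDNF cultures lay above 3 of the controls, and GDNF culture 22 was just below control culture 21. Means were 18.8 ± 4.89 CPM in the controls and 26.4 ± 2.32 CPM after GDNF (SD, n = 4 each) (log2 fold change 0.49, SE 0.20, adjusted p = 0.203). The unadjusted edgeR p of 0.0367 rose above 0.05 without control culture 3 or 7 or GDNF culture 6, 12 or 17, with estimates between 0.33 and 0.57. *Cenpa*, the histone of the centromere, was at 77.9, 50.6, 72.0 and 66.7 CPM in the controls and 51.7, 41.0, 51.9 and 41.3 CPM after GDNF, with control culture 7 inside the GDNF range (log2 fold change -0.52, SE 0.17, adjusted p = 0.167). It was one of 4 members, with *Cdk1*, *Pcna* and *Tk1*, that stayed at an unadjusted p under 0.05 with each of the 8 cultures left out in turn. With library size only, *Cdk1* and *Pcna* alone of the 4 stayed under it. With transcript length offsets, the unadjusted edgeR p was 0.0589 for *Cenpa* and 0.0529 for *Tk1*, and without control cultures 3 and 21 that of *Tk1* was 0.081. *Birc5*, survivin of the chromosomal passenger complex, was at 113, 73.2, 92.3 and 135 CPM in the controls and 92.1, 60.9, 78.7 and 71.4 CPM after GDNF (log2 fold change -0.45, SE 0.21, adjusted p = 0.236). *Top2a*, the topoisomerase that untangles sister chromatids, was at 43.6, 41.4, 37.8 and 81.8 CPM in the controls and 53.3, 44.0, 56.1 and 44.9 CPM after GDNF. Control culture 21 alone was high, and the estimate was near zero (log2 fold change -0.04, SE 0.24, adjusted p = 0.930). It turned to 0.23 without control culture 21, to 0.01 without GDNF culture 12 and to 0.16 with library size only. The motor and matrix proteins of the kinetochore, *Cenpe* and *Cenpf*, had estimates of 0.27 (SE 0.28) and 0.24 (SE 0.21), and *Aurkb*, the passenger kinase, -0.35 (SE 0.23).

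All 8 genes of the spindle and its checkpoint had estimates below zero, but the sign of 4 was not stable. *Bub1b*, *Tpx2* and *Hmmr* were above zero with library size only. Without control culture 21, *Plk1*, *Bub1b* and *Tpx2* turned to 0.03, 0.05 and 0.05, and without control cultures 3 and 21, *Plk1*, *Tpx2* and *Hmmr* turned to 0.38, 0.12 and 0.05. *Bub1b* was also above zero without GDNF culture 22. *Aurka*, the kinase of spindle poles, was at 71.0, 38.2, 49.8 and 92.4 CPM in the controls and 47.2, 33.3, 44.0 and 39.8 CPM after GDNF. Control cultures 3, 14 and 21 were above all GDNF cultures, and control culture 7 was within their range (log2 fold change -0.61, SE 0.26, adjusted p = 0.205). *Bub1*, a checkpoint kinase at the kinetochore, was at 49.1, 37.1, 43.9 and 69.5 CPM in the controls and 29.3, 31.6, 45.8 and 34.3 CPM after GDNF, with GDNF culture 17 above control cultures 7 and 14 (log2 fold change -0.50, SE 0.22, adjusted p = 0.217). *Tpx2*, which nucleates spindle microtubules and had the highest CPM of this group, was at 144, 98.4, 141 and 217 CPM in the controls and 132, 114, 153 and 145 CPM after GDNF (log2 fold change -0.14, SE 0.22, adjusted p = 0.733). The remaining 5 are the kinase *Plk1*, the checkpoint protein *Bub1b*, *Cdc20* and the microtubule-binding proteins *Hmmr* and *Nusap1*, which had estimates of -0.27, -0.06, -0.34, -0.21 and -0.39. Of the cytokinesis genes, *Prc1*, which bundles the midzone, was at 113, 89.1, 106 and 197 CPM in the controls and 106, 95.8, 119 and 121 CPM after GDNF (log2 fold change -0.19, SE 0.24, adjusted p = 0.648), and *Anln* and *Ect2*, of the contractile ring, both had an estimate of -0.39 (SE 0.31 and 0.30).

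For S phase and mitotic genes, the control cultures differed among themselves by more than the groups did. Control culture 21 was the highest of the 8 cultures for 20 of 24 mitotic and 14 of 21 S phase genes, but for 2 of 15 G1 genes, whereas it was the highest for 1650 of the 16557 genes tested. With each gene centred on its mean over cultures, the median log2 CPM of mitotic genes in the controls was 0.16 in culture 3, -0.26 in culture 7, -0.05 in culture 14 and 0.65 in culture 21. In GDNF cultures 6, 12, 17 and 22 it was 0.03, -0.33, 0.15 and -0.28. The S phase genes followed nearly the same order of cultures, from 0.59 in control culture 21 to -0.31 in GDNF culture 12, and the G1 genes stayed between -0.13 and 0.21. The ranges of the groups overlapped in all 3 classes. The highest control exceeded the lowest by a median of 2.05-fold over the mitotic and 1.92-fold over the S phase genes, against 1.42-fold and 1.44-fold for the GDNF cultures, and the controls had the wider range in 23 of 24 mitotic, 18 of 21 S phase and 12 of 15 G1 genes. Without control cultures 3 and 21, which had the most epithelial marker RNA, the medians of the log2 fold changes were -0.05 for G1, 0.11 for S phase and 0.03 for mitotic genes, and 6 members were lower at the unadjusted p (*Pcna*, *Cdk1*, *Cdkn1b*, *Cdk4*, *Cenpa* and *Tyms*) and 6 higher (*Cdk6*, *E2f8*, *Mcm7*, *Uhrf1*, *Mki67* and *Cenpe*), where 11.6% of all genes were lower and 3.30% higher. The sign of the estimate turned from below to above zero for 9 members without control culture 21 (*Cdc6*, *Mcm4*, *Uhrf1*, *E2f8*, *Top2a*, *Plk1*, *Bub1b*, *Tpx2* and *Prc1*) and for 17 without control cultures 3 and 21, 1 of them in G1 (*Ccnd1*).

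**Figure D3:**
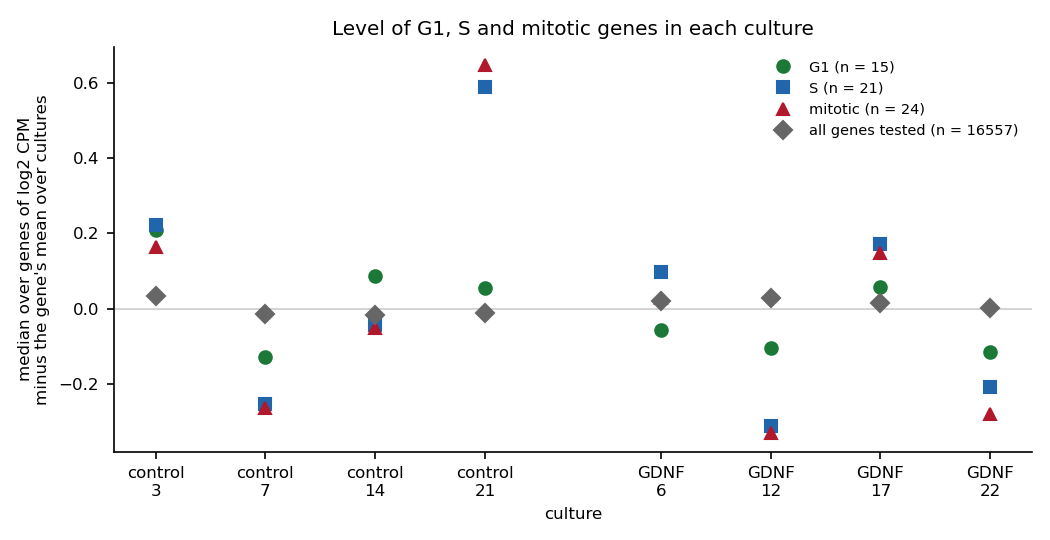
Median over the 15 G1, 21 S phase, 24 mitotic and all 16557 genes of log2 CPM after centring each gene on its mean over the 8 cultures, for each control and GDNF culture. The S phase and mitotic medians lie close together in every culture and reach 0.59 and 0.65 in control culture 21, while those of all genes stay between -0.02 and 0.03.

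The class medians were below zero in both kinds of culture. Cultures with more *Xist* than Y-linked RNA numbered 2 per group. In them, the median difference in log2 CPM between GDNF and control was -0.24 for G1, -0.04 for S phase and -0.08 for mitotic genes. In those with more Y-linked RNA (2 per group), which include control culture 21, it was -0.04, -0.34 and -0.42. Below zero were 9, 12 and 14 genes of the 3 classes in the former cultures and 9, 16 and 20 in the latter. *Cdk1* was lower in both kinds, by log2 differences of -0.62 and -0.76, and *Pcna* by -0.75 and -0.37. With the kind of culture as a covariate in edgeR, 10 members were lower and 2 higher (*Mki67* and *Dnmt1*) at the unadjusted p, where 13.6% of all genes were lower and 10.4% higher.

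Transcript length moved with the estimates. Among all genes, the median log2 fold change was -0.32 for transcripts under 1500 bases, -0.10 for 1500 to under 3000 bases, 0.12 for 3000 to under 5000 bases and 0.34 for 5000 bases or more. The members in these 4 ranges had medians of -0.48 (8 genes), -0.34 (21 genes), -0.20 (23 genes) and 0.23 (8 genes), below those of all genes in each. *Mki67* (10075 bases), *Dnmt1* (5370 bases), *Cenpe* (7813 bases) and *Cenpf* (11122 bases) are long and had positive estimates, those of *Cenpe* and *Cenpf* turning negative under the offsets described next. *Pcna* (1260 bases), *Cdk4* (1346 bases), *Cenpa* (1337 bases) and *Gins2* (1038 bases) are short and had negative ones. Some members went the other way. The shortest, *Cdkn2a* (929 bases), had a positive estimate, and *Anln* (5421 bases) and *Top2a* (5217 bases) are long and had negative ones. Transcripts under 1500 bases took 38.1% of counts in control culture 3, 26.5% to 33.3% in the other controls and 23.2% to 27.5% after GDNF. When a trend of level on length, estimated in each culture, was entered into edgeR as an offset, the log2 fold change was 0.08 for *Mki67* and 0.07 for *Dnmt1*, -0.33 for *Pcna* (unadjusted p = 0.0184) and -0.72 for *Cdk1* (unadjusted p = 0.000942). With this offset, 8 members were lower at the unadjusted p (*Cdk1*, *Bub1*, *Tyms*, *Pcna*, *Birc5*, *Nusap1*, *Ccnd1* and *Anln*) and 0 higher, against 12.1% and 5.64% of all genes, and the medians were -0.12 for G1, -0.23 for S phase and -0.32 for mitotic genes. With library size only, the class medians were 0.02, 0.02 and -0.12.

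**Figure D4:**
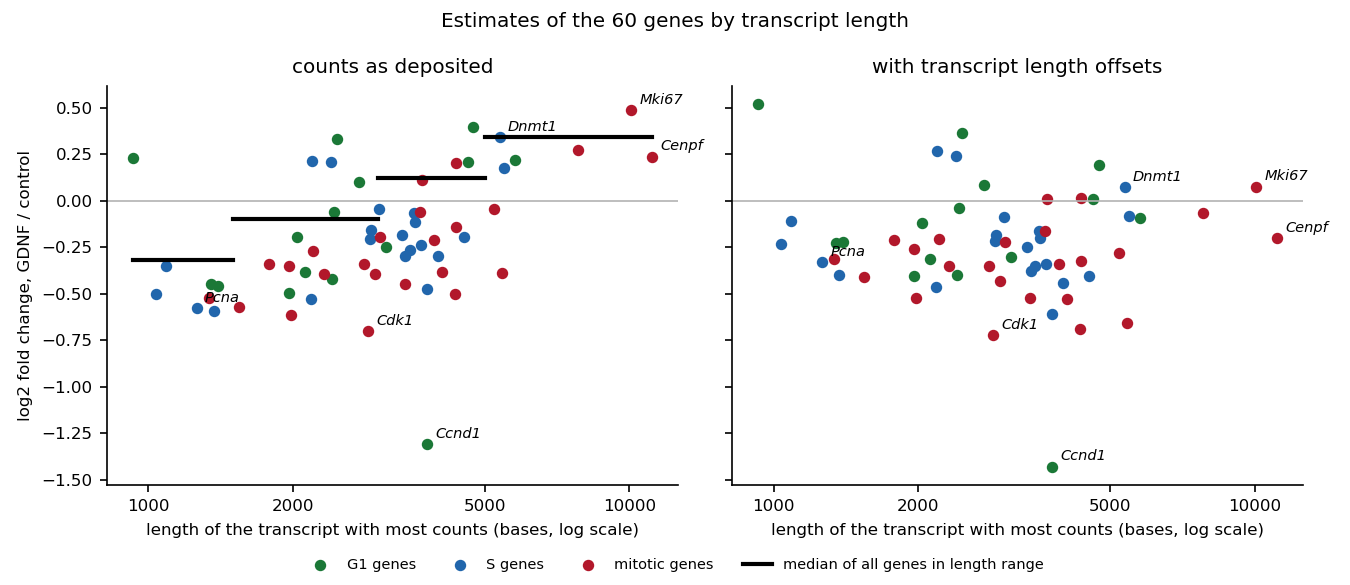
Log2 fold change of GDNF over control cultures for the 60 genes against the length of the transcript with the most counts (bases, log axis), from the counts as deposited (left) and with transcript length offsets (right). Black bars give the median of all genes in each length range, rising from -0.32 to 0.34. The members follow that slope at left, and at right *Mki67* and *Dnmt1* lie near zero while *Cdk1* and *Ccnd1* stay low.

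Other genes of the pathway, outside the 60, were read from 3 lists. At the unadjusted edgeR p of 0.05, where 12.9% of all genes were lower and 9.25% higher, 5 of 24 other G1 regulators were lower and 2 higher. Their median log2 fold change was -0.19. *Cdkn1c*, which encodes the CDK inhibitor p57, was at 48.6, 37.6, 43.0 and 31.4 CPM in the controls and 17.1, 29.9, 17.03 and 19.5 CPM after GDNF, so that all GDNF cultures lay below all controls (log2 fold change -0.94, SE 0.22, adjusted p = 0.167). *Cks1b*, a small subunit of Cdk complexes, and *Mnat1*, of the Cdk-activating kinase, had estimates of -0.72 (SE 0.18) and -0.57 (SE 0.17). Of 48 other DNA replication genes, 11 were lower and 1 higher, with a median of -0.25. *Rnaseh2a*, a subunit of the enzyme that removes ribonucleotides, *Pole2*, of the leading strand polymerase, and *Tipin*, of the fork protection complex, had estimates of -0.54, -0.58 and -0.52 (SE 0.15, 0.19 and 0.17). Of 65 other mitotic genes, 8 were lower and 2 higher, with a median of -0.11, which turned to 0.06 without control culture 21 and to 0.11 without control cultures 3 and 21. The medians of the other G1 and replication lists stayed below zero, at -0.23 and -0.19 without control culture 21 and at -0.13 and -0.05 without both. *Cenpw* and *Nuf2*, both of the kinetochore, and *Mad2l1*, of the spindle checkpoint, had estimates of -0.59, -0.51 and -0.58 (SE 0.17, 0.18 and 0.18). The groups did not overlap for 7 of 24, 6 of 48 and 5 of 65 genes of the 3 lists, against 13.2% of all genes. As in the 60 genes, none passed the adjusted p in edgeR. Genes at the unadjusted p in either direction made up 29.2%, 25% and 15.4% of the lists, against 22.1% of all genes. DESeq2, which called 10.6% of all genes with an adjusted p, called 4 of 24 other G1 regulators (*Cdkn1c*, *Cdkn2d*, *Mnat1* and *Cks1b*), 2 of 47 other replication genes (*Pole2* and *Rnaseh2a*) and 2 of 64 other mitotic genes (*Mad2l1* and *Cenpw*), all lower.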

How the data were processed

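Libraries of poly-A RNA (SMART-Seq v4) from 8 tubuloid cultures, 4 per group, were sequenced in paired ends. The submitters' processing notes name STAR, featureCounts, DESeq2 and the builds mm10 and GRCm38; versions, strand handling and the treatment of reads that fit several genes are not given in the sources used here. The authors deposited whole-number counts for 33068 RefSeq transcripts per culture, with FPKM, used here only for transcript length (counts and FPKM gave a whole length within 0.01 for 100% of detected values), and TPM, deposited per transcript.

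Counts were summed per symbol. The test was that of edgeR 4.0.16 under R 4.3.3 (filterByExpr, TMM, glmQLFit, glmQLFTest; Benjamini-Hochberg over 16557 genes). Totals were 72991721 to 97490625 counts; reads that fit several transcripts may be counted in each. For TPM, the transcript with most counts was taken. Single genes were compared by exact two-sided permutation tests. Alternatives were DESeq2 1.42.0, limma-voom (limma 3.58.1), other normalizations and filters, the transcript with most counts, the kind of culture and each culture left out. Length offsets used splines of 5 degrees of freedom. Steps were tested on simulated data. The 60 members and the other lists were chosen with earlier results of these data known. Values by culture are given for members at an unadjusted p of 0.05, the member with the highest mean CPM in each of 13 roles, and Mki67, Top2a, Pcna, Ccnd1, Cdkn1b, Cdkn2a, Ccnb1 and Cdk1; of each other list, the 3 genes with the smallest p are named. Ccnd2, E2f2, Cdkn2c, Cdkn1a and others are named after their values were seen. Coordinates and promoters are RefSeq on GRCm38.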

Additional observations from a re-analysis of the deposited data

Results flagged for a closer look

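In each group of 4 cultures, the level of every member was examined for 1 culture that lay far from the other 3 (Dixon's criterion, the gap to the nearest culture as a share of the whole range). Of 120 groups, 9 showed such a culture, where chance gives about 1 in 20, that is 6. Control culture 21 was the far one, on the high side, for *Top2a* (81.8 CPM against 43.6 CPM in the nearest control), *Anln* (59.5 against 28.7 CPM), *E2f7* (11.4 against 7.41 CPM) and *Mybl2* (14.3 against 7.87 CPM). Control culture 3 was the far one for *Pcna* (108 against 75.7 CPM), control culture 14 for *Cdkn2c* (16.4 against 11.99 CPM) and control culture 7, on the low side, for *Cdk2* (55.9 against 67.0 CPM). Among the GDNF cultures, culture 17 was far above the rest for *Ccne1* (15.6 against 11.8 CPM) and *Mybl2* (12.6 against 9.51 CPM). Control culture 3 also had the lowest TMM factor and the most counts in short transcripts, and control culture 21 was the highest culture for most S phase and mitotic genes. Their part in these values was not tested.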

How the results depend on the processing

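No paired analysis was possible because the groups share no culture numbers. The count of genes at an adjusted p of 0.05 was 0 in edgeR under every normalization, filter, covariate, offset and left-out culture tried and in limma-voom, and 1208 by DESeq2. DESeq2 called *Cdk1* (log2 fold change -0.72, adjusted p = 0.0227), *Pcna* (-0.59, adjusted p = 0.0294) and *Cenpa* (-0.54, adjusted p = 0.0452). Over all genes, those higher at the unadjusted p were 3299 with library size only, 934 with length offsets, 566 without control cultures 3 and 21 and 871 to 1713 with each culture left out. Those lower were 850 with library size only and 1321 to 2577 with each culture left out. Members higher, with the share of all genes higher in parentheses, numbered 3 with limma-voom (9.96%) and 5 with library size only (19.9%). They numbered 2 with upper quartile scaling (9.22%), with the filter on mean CPM (11.5%) and with the kind of culture as covariate (10.4%). They numbered 0 with length offsets (5.64%), 6 without control cultures 3 and 21 (3.30%) and 0 to 4 with each culture left out (5.19% to 10.2%). Members lower, with the share of all genes lower in parentheses, numbered 6 with limma-voom (12.6%) and 2 with library size only (5.13%). They numbered 6 without control cultures 3 and 21 (11.6%) and 4 to 20 with each culture left out (7.88% to 15.3%). The G1 median was 0.020 with library size only, -0.051 without control cultures 3 and 21 and -0.30 to -0.052 with each culture left out. The S phase and mitotic medians moved by less than 1 SD of the spread between cultures under all alternatives, ranging over -0.32 to -0.01 and -0.48 to -0.05 with each culture left out. That spread was the one between the control cultures, which includes control culture 21. Both medians changed sign without control cultures 3 and 21, to 0.11 and 0.03, and that of S phase also with library size only, to 0.02. Of 28 members followed, 8 changed sign under some alternative, all with adjusted p above 0.05 throughout. Without control cultures 3 and 21, the log2 fold changes turned to 0.35 for *Ccnd1*, 0.26 for *Top2a*, 0.87 for *E2f8*, 0.12 for *Prc1*, 0.12 for *Tpx2* and 0.34 for *Uhrf1*. With library size only they turned to 0.16 for *Top2a*, 0.015 for *Prc1*, 0.071 for *Tpx2* and 0.15 for *Uhrf1*, with limma-voom to 0.27 for *E2f8* and 0.038 for *Uhrf1*, and with length offsets to -0.093 for *Ccnd2*. With each culture left out, the range was -0.17 to 0.23 for *Top2a*, -0.54 to 0.23 for *E2f8*, -0.011 to 0.36 for *Foxm1*, -0.33 to 0.061 for *Prc1*, -0.30 to 0.048 for *Tpx2* and -0.21 to 0.12 for *Uhrf1*. The cause of these changes was not tested. The exact permutation p of *Cdk1* was 0.0571 with library size only and with any GDNF culture left out.
Length offsets and the joint removal of control cultures 3 and 21 were chosen after seeing the data. Depth limits little here beside the spread between cultures, with 88 counts the lowest value of a member in any culture.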

Other observations

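By the authors' TPM, which divides by transcript length and has no correction for composition, 41 of the 60 genes had a higher mean after GDNF than in the controls, against 15 by the edgeR estimates on TMM-scaled counts. Of the genes lower by edgeR, 26 had the higher mean TPM after GDNF. In S phase genes the counts were 16 of 21 by TPM and 4 of 21 by edgeR, in mitotic genes 15 of 24 and 5 of 24, and in G1 genes 10 of 15 and 6 of 15. Over all 16557 genes tested, 78.8% had a higher mean TPM after GDNF and the median log2 ratio of mean TPM was 0.42, so that the members' median of 0.15 lay below that of all genes on this scale too, as did those of G1 (0.23), S phase (0.17) and mitotic genes (0.04). *Cdk1* had a lower mean after GDNF on both scales, 55.2 ± 9.598 TPM in the controls and 44.9 ± 3.56 TPM after GDNF (SD, n = 4 each), as did *Pcna*, 98.8 ± 3.88 and 88.7 ± 8.32 TPM. *Mki67* had a higher mean on both, 2.94 ± 1.12 and 5.22 ± 0.40 TPM.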
